A study of Mus musculus with 15 samples.

Results

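Isocitrate dehydrogenase 1 (Idh1) and 8 related enzyme genes were followed through the RNA-seq counts of cultured adult neural stem cells (aNSCs): Idh2, Idh3a, Idh3b, Idh3g, Aco1, Me1, G6pdx and Pgd. They are 9 of the 53801 genes in the counts table, and all 9 were matched by gene symbol and passed the filter on low counts. The genes were selected on earlier results of these same counts, among them the lower Idh1 level in the Fl/Fl cultures. Their differences between the 3 groups are therefore given as a description, with standard errors and no p-values, and nothing is supported with them.

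NADPH is the reducing power that cells spend on building fatty acids and sterols and on keeping glutathione and thioredoxin reduced. Cytosolic IDH1 and mitochondrial IDH2 make it while converting isocitrate to alpha-ketoglutarate, the malic enzyme ME1 makes it from malate, and G6PDX and PGD make it in the oxidative arm of the pentose phosphate pathway. The mitochondrial enzyme built from IDH3A, IDH3B and IDH3G catalyses the isocitrate step of the citric acid cycle and yields NADH instead. ACO1 makes isocitrate from citrate in the cytosol and, without its iron-sulfur cluster, acts as an iron regulatory protein.

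The aNSCs came from the subventricular zone of mice aged 2 months on a mixed C57BL6/J-129sv background and were grown in suspension with growth factors, 1 primary culture per mouse. Every culture carried the Rosa26-CreERT2 transgene, in which a ubiquitously active locus drives a Cre recombinase that works only when 4-hydroxytamoxifen (4-OHT) is present. The groups were Fl/+ untreated (mice 19, 24, 26, 35 and 36; a single floxed allele of Trrap), Fl/+ 4-OHT (the same 5 mice) and Fl/Fl 4-OHT (mice 27, 28, 29, 37 and 39; both alleles floxed), with 5 cultures each. Trrap encodes the large scaffold shared by several histone acetyltransferase complexes. The comparison of Fl/Fl 4-OHT with Fl/+ 4-OHT asks what the loss of the remaining allele does, and that of Fl/+ 4-OHT with Fl/+ untreated gives the background of the drug. In the second comparison 4-OHT, Cre activity and the loss of a single Trrap allele cannot be told apart. In bulk RNA, fewer cells of a type and less RNA per cell cannot be told apart either.

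Each library held 25720034 to 32187097 counted reads, and the 9 genes had between 2813 and 13185 counts in every library. Idh2 and Me1 each overlap an annotated gene model on the same strand, Gm45203 and Gm38230, and reads shared with it may be missing from their counts. Trrap itself was lower in Fl/Fl 4-OHT, at 105 ± 24.6 CPM (counts scaled to a common library size; SD, n = 5), than in Fl/+ 4-OHT, at 165 ± 24.9 CPM (log2 fold change -0.64 ± 0.16 SE, edgeR quasi-likelihood adjusted p = 0.0115). The count covers all exons of Trrap, not only the floxed part, so it does not measure the efficiency of the deletion. The Fl/Fl 29 culture had 144 CPM of Trrap, within the Fl/+ 4-OHT range of 141 to 202 CPM. The library labelled Fl/Fl 39 female had 0.314 CPM of Xist and 54.3 CPM of the Y-linked Ddx3y, which goes against its sex label. Mouse 36, labelled male, had Ddx3y together with Xist, at 5.88 CPM untreated and 75.6 CPM after 4-OHT, whereas the other libraries labelled male had at most 0.551 CPM of Xist. Results are therefore also given without the cultures of mice 36 and 39. The summed level of 8 oligodendrocyte markers ran from 217 to 723 CPM in Fl/+ untreated, from 567 to 1161 CPM in Fl/+ 4-OHT and from 711 to 2885 CPM in Fl/Fl 4-OHT, with medians of 459, 849 and 785 CPM. The 2885 CPM came from Fl/Fl 37, and the next highest Fl/Fl culture had 1011 CPM. For 10 neural stem cell markers these ranges were 7049 to 10343 CPM, 7452 to 9805 CPM and 5851 to 9918 CPM. For 6 astrocyte markers the range was 2145 to 3147 CPM, 1868 to 3701 CPM and 2134 to 4955 CPM, and for 7 neuron markers it was 818 to 1097 CPM, 821 to 1017 CPM and 557 to 816 CPM. Endothelial markers summed to at most 55.9 CPM and microglia markers to at most 2.02 CPM in any library, with Cldn5, Cdh5, Cx3cr1, Aif1 and Tmem119 at 3 or fewer counts in every library. Between genotypes the calls in these lists were 1 oligodendrocyte marker and 1 astrocyte marker higher, and 4 neural stem cell markers and 2 neuron markers lower. After 4-OHT 5 of 8 oligodendrocyte markers were higher, 1 astrocyte marker was higher and 3 were lower, 1 neural stem cell marker was higher and 3 were lower, and 1 endothelial marker, Flt1, was higher. Over all genes, 16.8% were called higher and 15.0% lower between genotypes, and 7.34% higher and 6.45% lower after 4-OHT. The part of these cell markers in the results below was not tested.

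Idh1 was the member with the largest difference between genotypes. This gene (ENSMUSG00000025950, GRCm38 chr1:65158616-65186500, minus strand) had 469, 410, 368, 394 and 449 CPM in the untreated Fl/+ cultures of mice 19, 24, 26, 35 and 36. After 4-OHT the same cultures had 402, 372, 351, 430 and 448 CPM of Idh1. The Fl/Fl 4-OHT cultures of mice 27, 28, 29, 37 and 39 had 188, 188, 167, 198 and 188 CPM of Idh1. All 5 Fl/Fl cultures thus lay below all 10 Fl/+ libraries, and the Fl/+ groups overlapped each other. The Idh1 log2 fold change was -1.09 ± 0.08 (SE) for Fl/Fl 4-OHT over Fl/+ 4-OHT, a level of 47.0% of the control, and -1.18 ± 0.09 over Fl/+ untreated. For 4-OHT in the Fl/+ cultures the Idh1 value was -0.09 ± 0.10, with a lower level after the drug in 4 of 5 mice. Of the 15036 genes tested between genotypes, 300 had a lower log2 fold change than Idh1. Leaving out each library in turn kept the Idh1 difference between -1.14 and -1.07. The Fl/Fl 29 culture, with the highest Trrap level of its group, had the lowest Idh1 level.

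**Figure D1:**
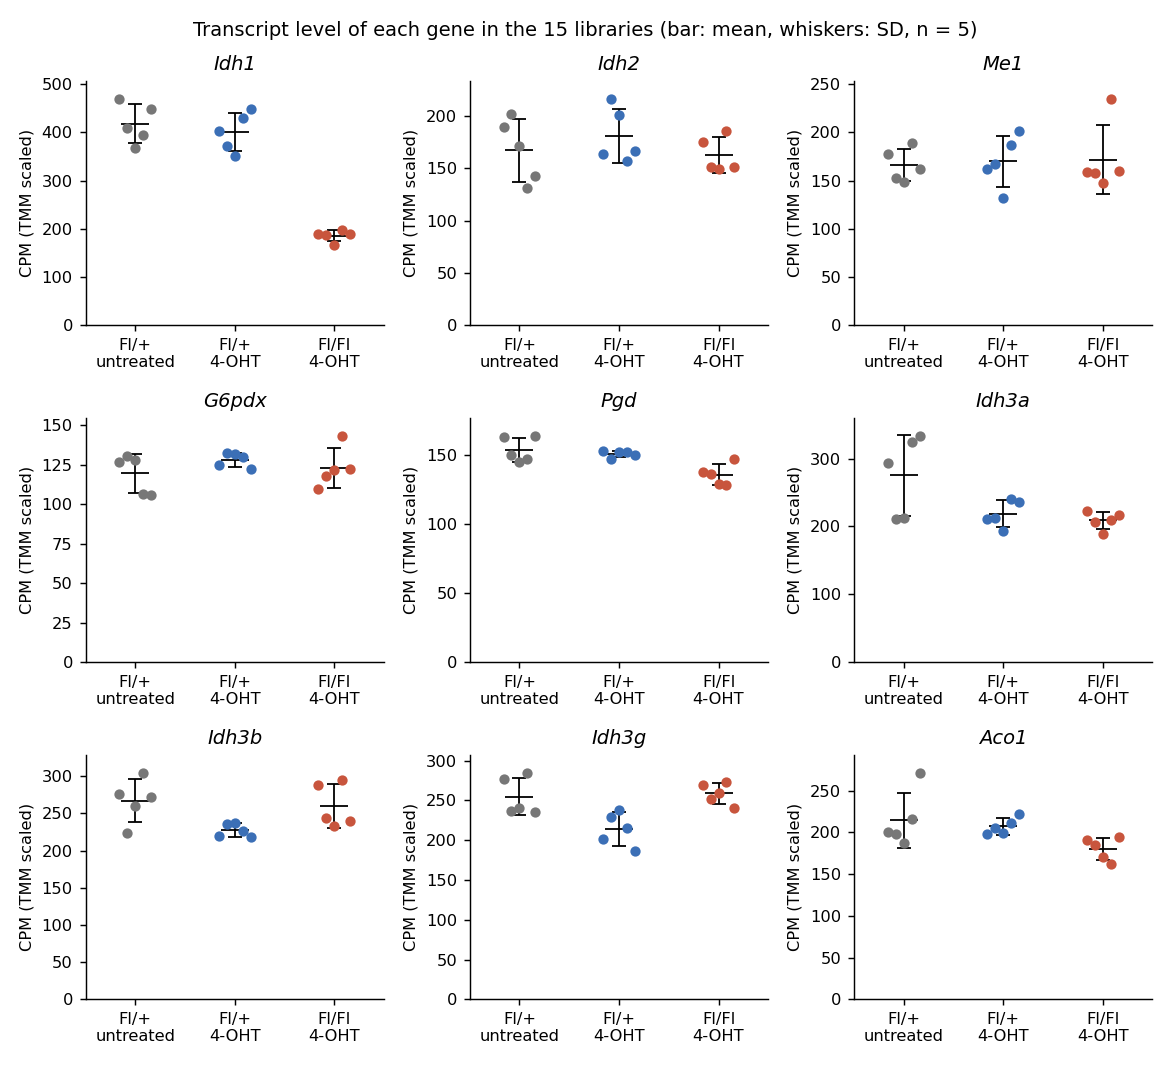
Transcript level in CPM (vertical axes, each starting at 0) of the 9 genes in the 15 libraries, by group on the horizontal axes, with each point a culture, the bar the mean and the whiskers the SD (n = 5). The Idh1 points of Fl/Fl 4-OHT lie between 167 and 198 CPM, below every Fl/+ point, while the groups of the other genes lie close together or overlap.

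Because the counts add up transcripts from all start sites, the sequence before each annotated start of Idh1 is shown. Beside it are those of Idh2, whose level differed little, and of Idh3g. Idh3g was higher in Fl/Fl 4-OHT than in Fl/+ 4-OHT, but near its Fl/+ untreated level (log2 fold change 0.01 ± 0.08 SE). The sequences are from RefSeq (GRCm38.p6), 250 bases ending just before the transcription start, read 5′ to 3′ on the minus strand. Capitals mark matches on either strand to any of 5 motifs searched: the GC box GGGCGG bound by Sp1-type factors, the E-box CACGTG, the sterol response element core TCACNCCAC, the antioxidant response element core TGACNNNGC and the CCAAT box CCAAT. A match may overlap another.
Idh1, upstream start, chr1:65186480-65186729: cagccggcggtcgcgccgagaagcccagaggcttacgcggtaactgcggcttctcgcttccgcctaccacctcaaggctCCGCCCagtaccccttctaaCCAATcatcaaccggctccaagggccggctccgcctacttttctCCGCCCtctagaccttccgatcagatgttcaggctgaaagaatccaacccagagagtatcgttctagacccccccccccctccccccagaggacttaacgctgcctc
Idh1, downstream start, chr1:65179143-65179392: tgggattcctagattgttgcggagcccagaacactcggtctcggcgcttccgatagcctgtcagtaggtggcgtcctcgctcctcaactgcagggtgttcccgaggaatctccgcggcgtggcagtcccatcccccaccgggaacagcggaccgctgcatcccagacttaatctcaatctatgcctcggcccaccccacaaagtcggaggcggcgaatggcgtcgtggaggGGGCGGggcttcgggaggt
Idh2, chr7:80115351-80115600: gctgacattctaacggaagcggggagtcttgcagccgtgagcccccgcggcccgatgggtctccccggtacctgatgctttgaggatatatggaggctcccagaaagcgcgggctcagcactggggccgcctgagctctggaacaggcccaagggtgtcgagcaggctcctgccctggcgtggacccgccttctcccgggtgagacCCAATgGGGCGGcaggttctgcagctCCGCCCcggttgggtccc
Idh3g, chrX:73786898-73787147: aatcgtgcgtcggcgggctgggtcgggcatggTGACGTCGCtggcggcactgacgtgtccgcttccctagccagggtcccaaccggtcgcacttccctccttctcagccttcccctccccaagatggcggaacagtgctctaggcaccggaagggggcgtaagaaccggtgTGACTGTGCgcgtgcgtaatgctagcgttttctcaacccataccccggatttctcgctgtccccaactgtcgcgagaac
The upstream Idh1 window held 2 GC boxes and a CCAAT box, and the downstream one held 1 GC box that begins 19 bases before the start. The Idh2 window held the same set as the upstream Idh1 window, with its GC boxes beginning 38 and 18 bases before the start. The Idh3g window held no GC box and 2 matches to the antioxidant response element core. RefSeq windows were matched for 8 of the 9 members, 11 windows in all, and Idh3a had none in the table. A GC box was present in 7 of these 11 windows and in 32.7% of all 32851 windows of the same length. A CCAAT box was in 5 of 11 windows and in 33.8% of all, and the antioxidant core was in 2 of 11 and in 10.2% of all. None of the 11 windows held the E-box letters (6.02% of all windows did) or the sterol response element core (1.05% did). These matches describe letters in a window and say nothing of binding.

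Idh2, the mitochondrial counterpart of Idh1 (ENSMUSG00000030541, chr7:80094846-80115392), had 189, 202, 172, 131 and 143 CPM in the untreated Fl/+ cultures, in the mouse order above. The treated Fl/+ cultures had 164, 216, 201, 157 and 167 CPM of Idh2, and the Fl/Fl 4-OHT cultures had 175, 151, 149, 186 and 152 CPM. The Idh2 groups overlapped, with a log2 fold change of -0.14 ± 0.11 (SE) between genotypes and 0.09 ± 0.14 for 4-OHT. Per kilobase of exon, which allows levels to be compared between genes, Idh1 made up 70.1% ± 4.09 (SD, n = 5) of the summed Idh1 and Idh2 level in Fl/+ untreated. This share was 67.4% ± 5.12 in Fl/+ 4-OHT and 51.7% ± 1.89 in Fl/Fl 4-OHT. In the Fl/Fl cultures the cytosolic and the mitochondrial gene were thus at nearly the same level per length, with Idh1 at 0.995 to 1.16 times Idh2 in single cultures.

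The other NADPH-making members showed small differences. Me1, the cytosolic malic enzyme, had 177, 153, 149, 189 and 162 CPM in Fl/+ untreated and 162, 167, 132, 187 and 202 CPM in Fl/+ 4-OHT. The Fl/Fl cultures had 159, 157, 148, 234 and 160.0 CPM of Me1, so mouse 37 stood well above the other 4. The Me1 log2 fold change between genotypes was 0.03 ± 0.14 (SE) with that culture and -0.12 without it. G6pdx, the entry enzyme of the pentose phosphate pathway, ranged from 109 to 143 CPM in Fl/Fl 4-OHT, from 122 to 132 CPM in Fl/+ 4-OHT and from 106 to 130.3 CPM in Fl/+ untreated, with overlap throughout. Its difference between genotypes was -0.04 ± 0.08 on the log2 scale. Pgd, the next dehydrogenase of that pathway, was tightly grouped in Fl/+ 4-OHT, at 147 to 153 CPM, and lay at 128, 129, 136, 137 and 147 CPM in Fl/Fl 4-OHT. The highest Fl/Fl value of Pgd, 146.8 CPM in mouse 39, was just under the lowest Fl/+ 4-OHT value of 147.1 CPM. These groups thus did not overlap, as for 22.7% of all genes, while the log2 fold change was only -0.14 ± 0.06. Summed per length, Idh1, Idh2, Me1, G6pdx and Pgd came to 324 ± 14.1 CPM per kb (SD, n = 5) in Fl/+ 4-OHT and 235 ± 20.8 in Fl/Fl 4-OHT. Without Idh1 the sum was 179 ± 8.59 and 168 ± 17.6 CPM per kb, so most of the gap between genotypes in the sum of the 5 genes was Idh1.

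The 3 subunit genes of the NAD-linked enzyme had lower mean levels after 4-OHT in the Fl/+ cultures, with overlapping groups. None of them was called with edgeR on the 10 Fl/+ libraries without a covariate, against 13.8% of all genes. Each was called in 2 of 18 alternative fits, and those fits called from 12.7% to 25.7% of all genes. These calls are a description. Idh3a, the catalytic subunit, had 293, 212, 213, 325 and 333 CPM before and 211, 212, 193, 240.1 and 237 CPM after the drug in mice 19, 24, 26, 35 and 36. Idh3b had 276, 224, 260.1, 304 and 272 CPM before and 220.2, 236, 237, 226 and 218 CPM after. Idh3g, a regulatory subunit encoded on the X chromosome, had 276, 236, 241, 284 and 236 CPM before and 202, 229.6, 238, 216 and 186 CPM after. The fitted 4-OHT differences were -0.36 ± 0.14, -0.25 ± 0.09 and -0.27 ± 0.10 (log2, SE) for Idh3a, Idh3b and Idh3g. Within mice the male-labelled cultures 19, 35 and 36 carried the larger changes, from -0.49 to -0.32 over the 3 genes, and the female-labelled cultures 24 and 26 ranged from -0.14 to 0.08. This split by labelled sex was not tested.

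**Figure D2:**
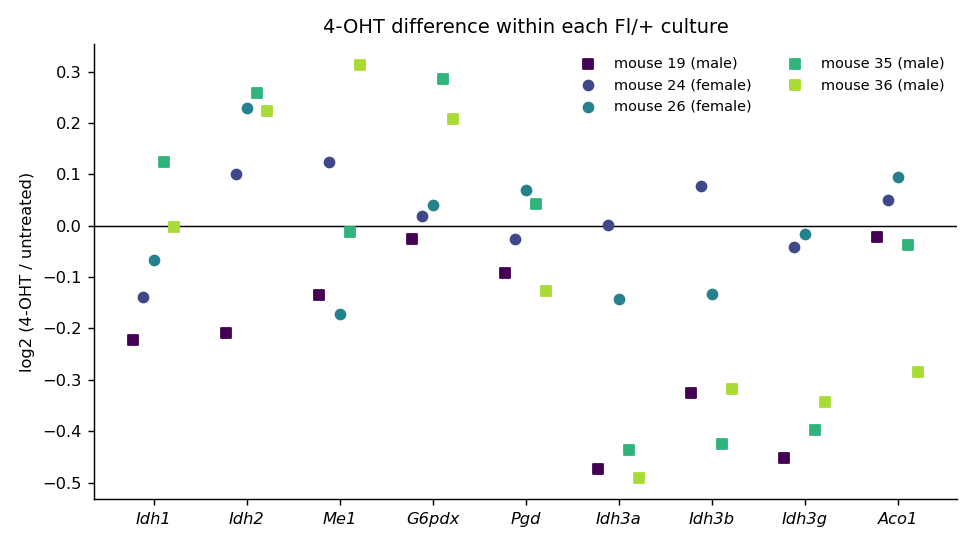
Log2 ratio of 4-OHT to untreated CPM within each of the 5 Fl/+ cultures (vertical axis) for the 9 genes (horizontal axis), with squares for mice labelled male and circles for mice labelled female. For Idh3a, Idh3b and Idh3g the 3 squares lie between -0.49 and -0.32, below both circles, and for the other genes the cultures are mixed around 0 except Aco1, where both circles lie above 0 and the 3 squares below.

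After 4-OHT, the Fl/Fl cultures had more Idh3g than the Fl/+ cultures, at 269, 251, 259, 274 and 241 CPM in mice 27, 28, 29, 37 and 39. All 5 were above the highest treated Fl/+ value of 238 CPM, where 22.7% of all genes had no overlap. The log2 fold change was 0.29 ± 0.08 (SE). Against the untreated cultures the Idh3g value was 0.01 ± 0.08. Idh3b ran the same way with less separation, from 233 to 295 CPM in Fl/Fl 4-OHT against 218 to 237 CPM in Fl/+ 4-OHT (0.21 ± 0.08 log2). Idh3a did not follow, at 189 to 223 CPM against 193 to 240.1 CPM (-0.05 ± 0.08). The ratio of Idh3a to Idh3b per length accordingly went from 0.691 ± 0.10 (SD, n = 5) in Fl/+ untreated to 0.650 ± 0.077 in Fl/+ 4-OHT and 0.546 ± 0.048 in Fl/Fl 4-OHT.

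Aco1 had 190.3, 184, 170.0, 162 and 194 CPM in Fl/Fl 4-OHT, all below the treated Fl/+ cultures at 198, 205, 199.7, 211 and 222 CPM. Between these groups 22.7% of all genes had no overlap. The difference was -0.18 ± 0.07 (log2, SE), and against Fl/+ untreated, which ranged from 187 to 271 CPM and overlapped the Fl/Fl group, it was -0.26 ± 0.10.

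**Figure D3:**
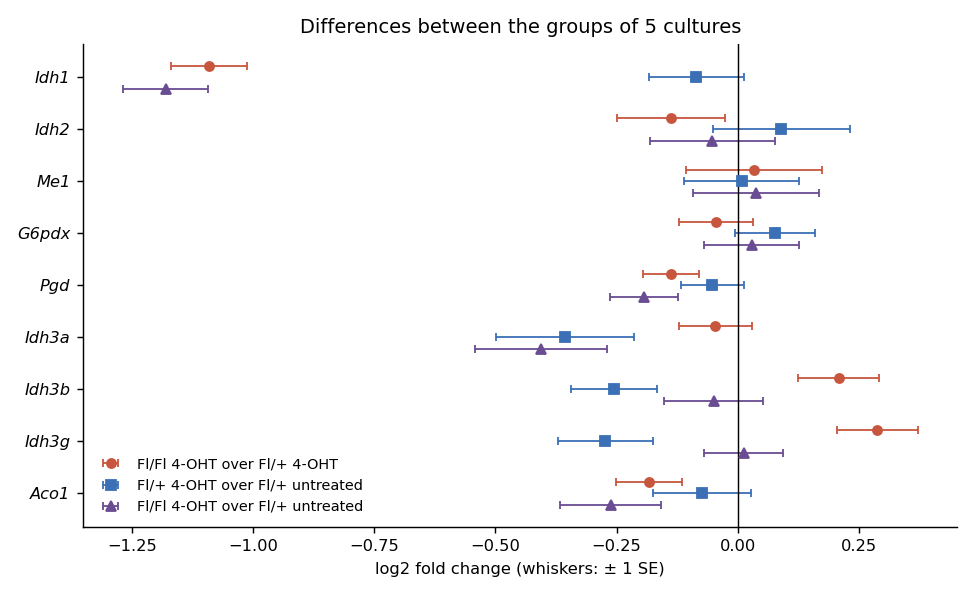
Log2 fold change (horizontal axis; whiskers ± 1 SE) of the 9 genes (vertical axis) in the 3 group comparisons, fitted with edgeR. Idh1 stands at -1.09 and -1.18 in the comparisons that involve Fl/Fl cultures, and the other 8 genes lie between -0.41 and 0.29.

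Over the members, edgeR's quasi-likelihood test at an adjusted p of 0.05 called 2 of 9 between genotypes, Idh1 lower and Idh3g higher, against 31.7% of the 15036 genes tested. The members were chosen with these contrasts known, so the counts of calls are a description and nothing is read from them. The groups did not overlap for 4 of 9 members (Idh1, Aco1 and Pgd lower, Idh3g higher), against 22.7% of all genes. For 4-OHT, 0 of 9 members were called and 0 did not overlap, against 13.8% called and 11.9% not overlapping among 14821 genes. At an unadjusted p under 0.05, 3 of 9 passed for 4-OHT, against 29.4% of all genes, and DESeq2's Wald test called 2, Idh3b and Idh3g, both lower, against 20.1%. Each of 3 other edgeR fits called 1 of 9 for 4-OHT: Idh3g lower with all 15 libraries in 1 fit (17.9% of all genes), Idh3a lower with labelled sex as a covariate (19.8%) and Idh3b lower without Fl/+ untreated 24 (12.7%). With the replicate block (mouse number), which pairs the libraries of the same animal, 1 of 9 was called for 4-OHT, Idh3a lower at -0.33 ± 0.10 (log2, SE), against 25.7% of all genes. For Fl/Fl 4-OHT over Fl/+ untreated, 2 of 9 were called, Idh1 and Idh3a lower, against 30.7%, and 1 of 9 did not overlap, against 22.9%. The comparisons share cultures, so their calls are not independent of each other. The Idh3g call between genotypes was lost without Fl/+ 19, Fl/+ 35, Fl/+ 36, Fl/Fl 27 or Fl/Fl 37, where its log2 fold change ranged from 0.22 to 0.27, and without the cultures of mice 36 and 39 only Idh1 was called, against 23.2% of all genes. DESeq2, and edgeR without Fl/Fl 39, called 4 of 9 between genotypes, adding Aco1 and Pgd, against 36.4% and 26.7% of all genes. Without Fl/+ 26 edgeR called 3, adding Aco1, against 31.0%, and with library size alone it called 3, adding Idh3b higher, against 31.9%. The Idh3a call against Fl/+ untreated was kept in 6 of 17 alternatives. There DESeq2 and the fit of all 15 libraries called 4 of 9, adding Aco1 and Pgd lower (36.0% and 35.0% of all genes), and DESeq2 size factors in edgeR called 3, adding Pgd (31.0%).

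Levels per exon length placed Idh1 first in both Fl/+ groups, at 151 ± 14.8 CPM per kb (SD, n = 5) untreated and 145 ± 14.4 CPM per kb after 4-OHT, above 98.5% of the genes tested. Idh3g followed at 94.3 ± 8.72 and 79.3 ± 7.73 CPM per kb, with no culture reaching the Idh1 range. Next in the untreated cultures came Idh3b at 78.0 ± 8.46, Idh2 at 64.6 ± 11.6 and Idh3a at 54.2 ± 11.7 CPM per kb. Aco1 stood at 47.7 ± 7.35, Me1 at 43.1 ± 4.35 and G6pdx at 38.8 ± 3.99 CPM per kb, and the cultures of each neighbouring pair from Idh3g down to G6pdx overlapped. Pgd was lowest, without overlap, at 23.8 ± 1.37 CPM per kb. This place depends on the length used, the union of exons, at 6447 bases for Pgd and 3080 for G6pdx. Without length, G6pdx was lowest in each group, at 119 ± 12.3 CPM untreated beside 154 ± 8.83 CPM for Pgd. In Fl/+ 4-OHT, Idh3g, Idh2 (69.9 ± 10.1 CPM per kb) and Idh3b (66.5 ± 2.60) overlapped. Aco1, Me1, Idh3a and G6pdx followed at 46.1 ± 2.17, 44.1 ± 6.91, 43.1 ± 3.88 and 41.6 ± 1.45 CPM per kb, and among them all pairs overlapped except Aco1 and G6pdx. In Fl/Fl 4-OHT the order began with Idh3g at 95.8 ± 4.90 and, below its range, Idh3b at 76.0 ± 8.47 CPM per kb. Idh1 came next at 67.1 ± 4.11 CPM per kb, close to Idh2 at 62.9 ± 6.58, which did not differ from it beyond their spread. Pgd was again the lowest at 21.02 ± 1.18 CPM per kb.

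**Figure D4:**
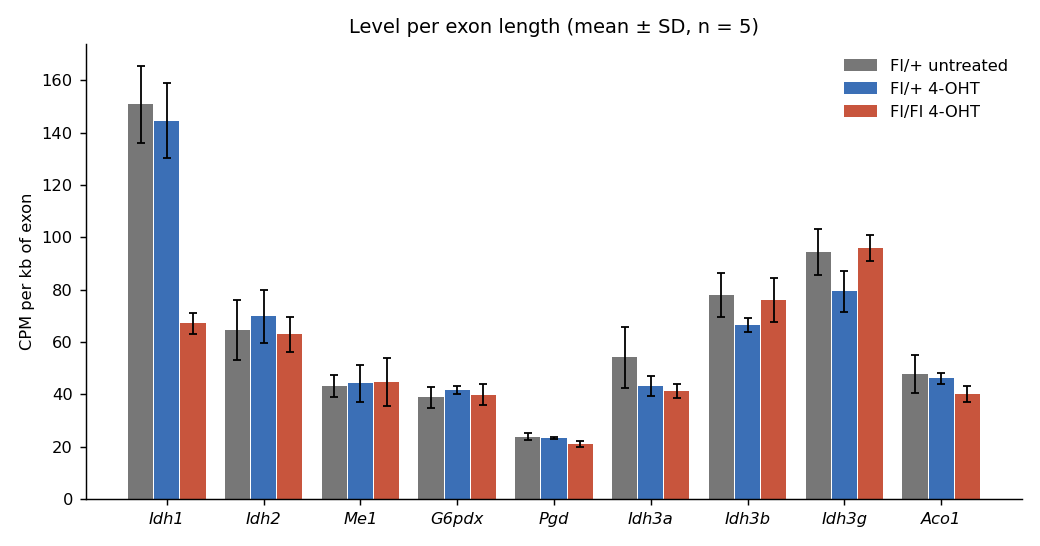
Mean level per kilobase of exon (vertical axis, CPM per kb, starting at 0; whiskers SD, n = 5) of the 9 genes (horizontal axis) in the 3 groups. Idh1 is the highest bar in both Fl/+ groups, at 151 and 145 CPM per kb, and falls between Idh3b and Idh2 in Fl/Fl 4-OHT, at 67.1 CPM per kb.

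Among the genes whose pattern over the 15 libraries was most like that of Idh1 were Eif4a1, Ttl, Bzw2 and Nans, with Pearson r of 0.979, 0.976, 0.972 and 0.968 on log2 CPM among 13322 genes. These coefficients are a description, since the points share 3 groups and most of the variation of Idh1 lies between Fl/Fl and Fl/+. Eif4a1, a translation initiation helicase, had 174 ± 19.0, 167 ± 3.99 and 88.7 ± 6.48 CPM (SD, n = 5) in Fl/+ untreated, Fl/+ 4-OHT and Fl/Fl 4-OHT. Ttl, the tubulin tyrosine ligase, had 45.7 ± 3.34, 41.0 ± 2.32 and 18.8 ± 2.19 CPM in the same order. Bzw2 had 64.7 ± 5.12 CPM and Nans 42.4 ± 2.93 CPM in Fl/Fl 4-OHT, against 150.2 ± 12.1 and 62.1 ± 1.48 CPM in Fl/+ 4-OHT.

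Labelled sex, which the choice of genes did not use, was tested over the 10 treated libraries with genotype as a covariate. The edgeR quasi-likelihood test called 0% of 16019 genes, with 1102 at an unadjusted p under 0.05 and 24 called by DESeq2. Among the members the log2 difference of male over female ran from -0.24 to 0.06, with edgeR adjusted p from 0.694 to 0.957. The largest was Idh2, at 160.4 CPM in male-labelled and 189 CPM in female-labelled cultures (-0.24 ± 0.09 log2, adjusted p = 0.694 with edgeR). Without the Fl/Fl 39 culture, whose Xist and Ddx3y go against its label, the Idh2 difference was -0.34 ± 0.08 with an edgeR adjusted p of 0.221, and 5 genes were called in all. Without mice 36 and 39 it was -0.34 with an edgeR adjusted p of 0.425, and 5 genes were called.

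Further genes around NADPH supply did not move in a single direction between genotypes. Of 13 genes (other NADP-linked enzymes, the folate enzyme Mthfd1l and NAD kinases), 2 rose and 3 fell, with a median log2 fold change of -0.14 against 0.02 over all genes; 16.8% of all genes were called higher and 15.0% lower. The 3 that fell are mitochondrial folate enzymes: Mthfd1l, a formyl-tetrahydrofolate synthetase that does not itself make NADPH, from 69.3 ± 13.1 to 45.9 ± 2.70 CPM (SD, n = 5; edgeR adjusted p = 0.00469), Mthfd2, from 30.7 ± 6.50 to 20.5 ± 3.38 CPM (adjusted p = 0.0205), and Mthfd2l, from 15.5 ± 2.25 to 10.6 ± 1.04 CPM (adjusted p = 0.00743). Cytosolic Mthfd1, at 167 ± 6.37 CPM in Fl/+ 4-OHT and 201 ± 30.4 CPM in Fl/Fl 4-OHT, and H6pd, the hexose-6-phosphate dehydrogenase of the endoplasmic reticulum, at 7.95 ± 1.03 and 10.3 ± 1.29 CPM, rose at an edgeR adjusted p of 0.0452 and 0.0454. Both of these calls were kept in only 4 of 17 alternatives and were lost without the cultures of mice 36 and 39, where 3 of 13 genes were called. The Mthfd2 call was lost with all 15 libraries in 1 fit (edgeR adjusted p = 0.0989). Over the alternatives the lowest count was 2 of 13 genes. Not called were Aldh1l1, the cytosolic formyl-tetrahydrofolate dehydrogenase and the most abundant of the list (log2 -0.20 ± 0.14, edgeR adjusted p = 0.295), Aldh1l2 (-0.34 ± 0.18, 0.158) and Glud1 (-0.14 ± 0.12, 0.420). Without Fl/Fl 37, Aldh1l1 and Aldh1l2 were called lower, at an edgeR adjusted p of 0.0463 and 0.0220. The NAD kinases Nadk (-0.08 ± 0.06) and Nadk2 (0.08 ± 0.09), which phosphorylate NAD to NADP, and the malic enzyme Me3 (0.52 ± 0.39) were not called either. G6pd2 and Nnt were below 1 CPM, and their values are uncertain, since G6pd2 is a near-identical copy of G6pdx and the table lists Nnt under 2 overlapping identifiers.

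After 4-OHT in the Fl/+ cultures 2 genes of this list rose and 2 fell, among them Mthfd1l and Mthfd1, which were also called between genotypes, in the opposite direction. Aldh1l2, the mitochondrial formyl-tetrahydrofolate dehydrogenase, rose from 55.4 ± 9.75 to 90.2 ± 10.4 CPM (SD, n = 5; edgeR adjusted p = 0.00572), and Mthfd1l rose from 43.3 ± 8.45 to 69.3 ± 13.1 CPM (adjusted p = 0.0248). Glud1, the glutamate dehydrogenase, fell from 1036 ± 146 to 718 ± 81.2 CPM (edgeR adjusted p = 0.0120), and Mthfd1 fell from 217 ± 26.3 to 167 ± 6.37 CPM (adjusted p = 0.0140). Both comparisons share the Fl/+ 4-OHT cultures. For Fl/Fl 4-OHT over Fl/+ untreated the log2 fold change was 0.07 ± 0.13 (SE) for Mthfd1l and -0.12 ± 0.12 for Mthfd1 (edgeR adjusted p = 0.708 and 0.466). These 4 of 13 calls stand beside 7.34% of all genes higher and 6.45% lower. The Mthfd1l call was lost without Fl/+ untreated 35, Fl/+ 4-OHT 24 or Fl/+ 4-OHT 35, at an adjusted p of 0.0542, 0.0549 and 0.0577. Without mice 36 and 39 only Aldh1l2 and Glud1 stayed called, with Mthfd1 and Mthfd1l at an edgeR adjusted p of 0.0522 each.

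Around Idh1 in the cytosol, genes of cholesterol synthesis, which spends NADPH, were mostly lower in the Fl/Fl cultures. Of 16 genes for cholesterol synthesis and uptake, 15 fell and 0 rose between genotypes, against 15.0% of all genes called lower and 16.8% higher. Their median log2 fold change was -0.76, and the count was 15 without mice 36 and 39, against 23.2% of all genes called. Fdps, the farnesyl diphosphate synthase, fell from 20.9 ± 2.66 to 9.26 ± 1.58 CPM (SD, n = 5; edgeR adjusted p = 0.000271), Mvd, the mevalonate diphosphate decarboxylase, from 101 ± 10.8 to 45.4 ± 4.72 CPM (adjusted p = 5.3e-05), and Hmgcs1, the HMG-CoA synthase, from 1547 ± 287 to 758 ± 137 CPM (adjusted p = 0.00111). After 4-OHT in Fl/+, 0 of these 16 were called with DESeq2 or with edgeR without the replicate block. Their median was -0.10, and 1 had an unadjusted p under 0.05. With the block, which pairs the libraries of each mouse, edgeR called 1 of the 16, against 25.7% of all genes. A cholesterol list was among those already examined in these samples, so its count is no independent evidence of direction. Of 12 genes for citrate export and fatty acid synthesis, 5 fell and 1, Srebf1, rose between genotypes, against 15.0% of all genes called lower and 16.8% higher. Elovl6, an elongase of fatty acids, fell from 165 ± 32.7 to 68.4 ± 10.4 CPM (edgeR adjusted p = 0.000242), Acly, which splits citrate into acetyl-CoA, from 503 ± 64.2 to 294 ± 27.5 CPM (adjusted p = 0.000485), and Acss2, the acetyl-CoA synthetase, from 142 ± 44.1 to 85.5 ± 16.5 CPM (adjusted p = 0.0185). Fasn, the fatty acid synthase, was also lower between genotypes (log2 -0.50 ± 0.10 SE, edgeR adjusted p = 0.00407). For this gene Fl/Fl 4-OHT over Fl/+ untreated gave -1.31 ± 0.11 (edgeR adjusted p = 4.41e-05). After 4-OHT, Fasn, Srebf1, the sterol regulatory factor, and the desaturase Fads2 fell, by 0.81, 0.57 and 0.51 on the log2 scale (edgeR adjusted p = 0.00127, 0.0179 and 0.0112). These 3 calls among 12 genes stand beside 6.45% of all genes called lower for 4-OHT. Srebf1 thus had opposite calls in comparisons that share the Fl/+ 4-OHT cultures, with 0.46 ± 0.14 (log2, SE; edgeR adjusted p = 0.0324) between genotypes and -0.11 ± 0.13 (adjusted p = 0.550) for Fl/Fl 4-OHT over Fl/+ untreated. The Srebf1 call for 4-OHT was lost without Fl/+ 4-OHT 19, at an adjusted p of 0.0511. With the replicate block, 6 of these 12 genes were called for 4-OHT, against 25.7% of all genes.

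Of 16 genes from the rest of the citric acid cycle 3 rose and 0 fell between genotypes, against 16.8% of all genes called higher and 15.0% lower. The median log2 fold change of the 16 was -0.01. Ogdh, the alpha-ketoglutarate dehydrogenase that uses the product of the IDH step, rose from 300.1 ± 36.3 to 429 ± 23.5 CPM (SD, n = 5; edgeR adjusted p = 0.00198). Sdha, a succinate dehydrogenase subunit, rose from 489 ± 21.2 to 587 ± 30.2 CPM (edgeR adjusted p = 0.00874), and Suclg2, a succinyl-CoA ligase subunit, from 50.7 ± 4.65 to 60.1 ± 5.23 CPM (adjusted p = 0.0339, kept in 7 of 17 alternatives). With all 15 libraries in 1 fit, 1 of the 16 was called. Over Fl/+ untreated, the Fl/Fl 4-OHT log2 fold change was 0.59 ± 0.09 (SE) for Ogdh (edgeR adjusted p = 0.000921). Sdha stood at 0.26 ± 0.15 and Suclg2 at -0.26 ± 0.16 in that comparison (edgeR adjusted p = 0.205 and 0.222). For 4-OHT 14 of the 16 had a negative value, at a median of -0.16 against -0.01 over all genes, and 0 were called with edgeR, 3 at an unadjusted p under 0.05, 2 with DESeq2 and 1 with the replicate block. These counts are over the genes of the list that are reported here. Over all genes the 4-OHT shares, in the same order, were 13.8%, 29.4%, 20.1% and 25.7%. Of 8 other pentose phosphate genes, edgeR called 1 between genotypes, against 31.7% of all genes, and DESeq2 called 2, against 36.4%. The edgeR call was Tkt, the transketolase of the non-oxidative arm, which fell from 740 ± 136 to 494 ± 42.1 CPM (edgeR adjusted p = 0.00646). For 4-OHT 0 of these 8 were called with edgeR or DESeq2, 0 had an unadjusted p under 0.05, and 1 was called with the replicate block.

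Among 10 NADPH-using reductases, 3 rose and 1 fell between genotypes, and among 13 Nrf2 pathway genes 2 rose and 2 fell, with Nqo1, Txnrd1 and Gsr in both lists. The shares of all genes were 16.8% called higher and 15.0% lower. Without mice 36 and 39, or without Fl/+ 4-OHT 19, 24, 35 or 36 or Fl/Fl 37, 2 of the 10 reductases were called between genotypes. Nrf2 is the factor, encoded by Nfe2l2, that switches on antioxidant genes. Nqo1, a quinone reductase, rose from 3.75 ± 0.65 to 8.85 ± 1.33 CPM (SD, n = 5; edgeR adjusted p = 0.00038), and Hmox1, the haem oxygenase, from 69.8 ± 12.2 to 174 ± 42.9 CPM (adjusted p = 0.000287). Txnrd1, the cytosolic thioredoxin reductase, fell from 263 ± 36.3 to 191 ± 27.1 CPM (edgeR adjusted p = 0.0141), and the exporter Abcc1 fell from 45.9 ± 2.95 to 25 ± 6.07 CPM (adjusted p = 0.00183). Txnrd2, the mitochondrial thioredoxin reductase, rose between genotypes by 0.36 ± 0.12 (log2, edgeR adjusted p = 0.0348) and fell after 4-OHT by 0.40 ± 0.10 (adjusted p = 0.0278), calls kept in 9 of 17 and 9 of 18 alternatives. For Fl/Fl 4-OHT over Fl/+ untreated the log2 fold change was -0.04 ± 0.12 (SE) for Txnrd2 and -0.01 ± 0.18 for Abcc1 (edgeR adjusted p = 0.845 and 0.980). After 4-OHT 2 of the 10 reductases fell, against 6.45% of all genes, the other being Cbr1 (log2 -0.40 ± 0.11, edgeR adjusted p = 0.0415, kept in 8 of 18 alternatives). For 4-OHT 1 of the 10 was called without mice 36 and 39, or without Fl/+ untreated 24 or 26, and 0 without Fl/+ untreated 19 or 35 or Fl/+ 4-OHT 19, 24, 35 or 36. Between genotypes Cbr1 was called higher (log2 0.26 ± 0.08, edgeR adjusted p = 0.0263). Its value for Fl/Fl 4-OHT over Fl/+ untreated was -0.15 ± 0.11 (edgeR adjusted p = 0.334). Of the Nrf2 list 4 of 13 were called for 4-OHT, against 13.8% of all genes. With the replicate block, which pairs the libraries of each mouse, 7 were called, against 25.7%. Without the block 3 rose and 1 fell: Abcc1 rose by 0.86 ± 0.12 and Nfe2l2 by 0.43 ± 0.09 (log2; edgeR adjusted p = 0.0014 and 0.00956), Osgin1 rose at a mean below 1 CPM, and the cystine transporter Slc7a11 fell from 35.2 ± 10.9 to 11.6 ± 5.14 CPM (adjusted p = 0.00923).

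Among 8 iron handling genes, listed beside Aco1, 7 passed the filter between genotypes, of which 1 rose and 2 fell, against 16.8% of all genes called higher and 15.0% lower. Fth1, the ferritin heavy chain, rose from 688 ± 107 to 981 ± 199 CPM (SD, n = 5; edgeR adjusted p = 0.0219), whereas Ftl1, the ferritin light chain, fell from 131 ± 42.4 to 86.1 ± 11.7 CPM (adjusted p = 0.0408) and Tfrc, the transferrin receptor, from 130.1 ± 36.0 to 85.5 ± 14.4 CPM (adjusted p = 0.0295). These 3 calls were kept in 12, 11 and 10 of 17 alternatives, and Fth1 was not called without mice 36 and 39 (adjusted p = 0.107). After 4-OHT Slc25a37, the mitochondrial iron importer, rose from 24.1 ± 3.90 to 40.1 ± 5.02 CPM (edgeR adjusted p = 0.00603) and Fth1 fell by 0.47 ± 0.13 on the log2 scale (adjusted p = 0.0333, kept in 11 of 18 alternatives). Fth1 differed by 0.06 ± 0.14 (log2, SE) for Fl/Fl 4-OHT over Fl/+ untreated (edgeR adjusted p = 0.802).

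**Figure D5:**
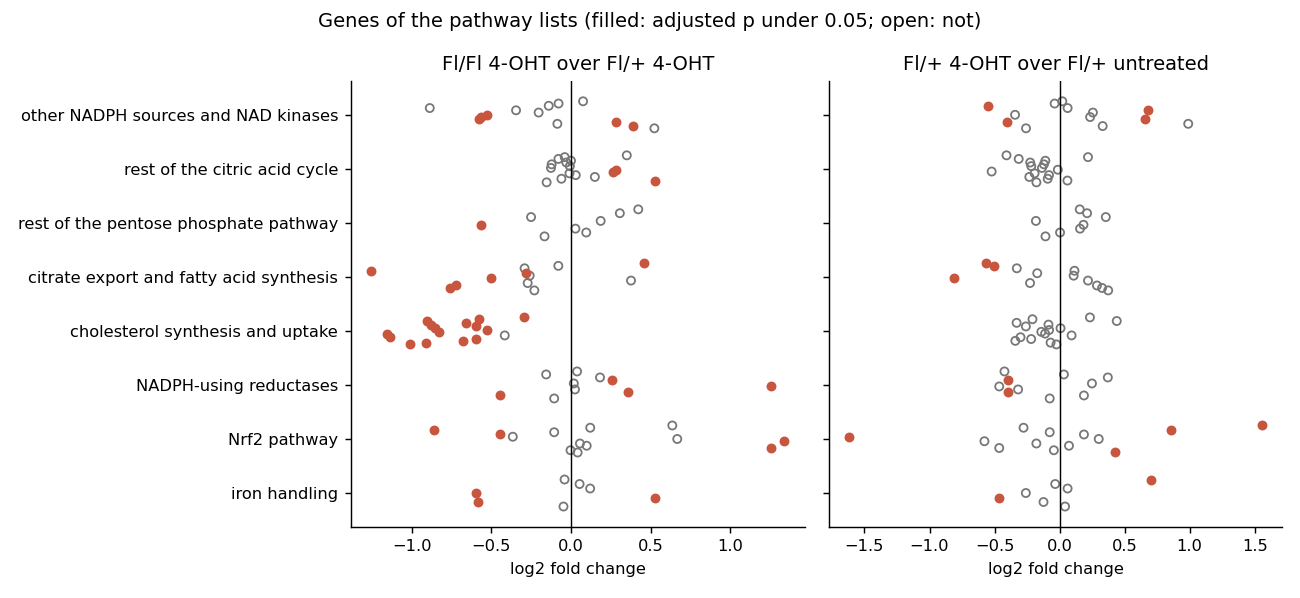
Log2 fold change (horizontal axes) of each tested gene in the 8 pathway lists (vertical axis), for Fl/Fl 4-OHT over Fl/+ 4-OHT on the left and Fl/+ 4-OHT over Fl/+ untreated on the right, with filled points for an edgeR adjusted p under 0.05. In the left panel 15 of 16 cholesterol genes are filled and lie below 0, and in the right panel none of them is filled.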

How the data were processed

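RNA was sequenced in 15 libraries of aNSCs cultured from 10 mice (stranded mRNA libraries, single-end reads, no molecular identifiers). Per the submitters' processing notes the authors used bcl2fastq 1.8.4, STAR 2.5.4b on GRCm38 and featureCounts 1.5.0, and they deposited raw counts per gene of uniquely mapped reads, stranded. Totals were 25720034 to 32187097 counts per library, and counting intervals would cover counting error only. The labels and the methods give the amount and the timing of 4-OHT differently, so neither is printed.

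The 53801 Ensembl identifiers were matched to symbols with GENCODE, 53706 successfully. Each comparison was fitted on its own 10 libraries with edgeR 4.0.16 (R 4.3.3): filterByExpr at a minimum count of 10, TMM scaling, quasi-likelihood F test, Benjamini-Hochberg adjustment over all genes tested, threshold 0.05. DESeq2 1.42.0 was an alternative. CPM values use TMM over the 15 libraries, and CPM per kb divides by the union of exons. The method was tested on simulated data.

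The members, gene lists and tests were chosen with earlier results of these data known. Named genes were the 9 members, Trrap, every gene of the list around NADPH supply passing the filter, up to 3 called genes per other list and comparison (largest change, mean of at least 1 CPM), and the 5 genes most correlated with Idh1 (log2 CPM with a pseudocount of 0.5). Genes that the lists or this rule would have taken and that are not reported here were left out of the counts over lists and named genes. The 5 Fl/+ mice appear in both Fl/+ groups, so their numbers pair animals. Deviations from the group means correlated between libraries of the same mouse at r = 0.249 to 0.663 over 13331 genes, and between different mice at -0.558 to 0.356. No 2 libraries of a group agreed within sampling noise (lowest chi-square per degree of freedom 20.0).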

Additional observations from a re-analysis of the deposited data

Results flagged for a closer look

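Of 144 sets of 5 CPM values checked for a culture far from the others (48 genes in 3 groups), 8 had one, and chance gives about 1 in 20, or 7.2. Among the members only Me1 was concerned, with 234 CPM in Fl/Fl 37 against 148 to 160.0 CPM in the other 4. The same culture had 847 CPM of Glud1, against 560.1 to 634 CPM in the others. Fl/+ 4-OHT 24 had 221 CPM of Elovl6 (others 139.9 to 162 CPM) and 220.3 CPM of Acss2 (others 113 to 133 CPM), and the untreated culture of the same mouse had 1918 CPM of Aldh1l1 (others 1264 to 1443 CPM). Mthfd1 stood at 178 CPM in Fl/+ 4-OHT 35 (others 163 to 166 CPM), Cbr1 at 47.5 CPM in Fl/+ 4-OHT 26 (others 38.5 to 39.98 CPM) and Suclg2 at 69.3 CPM in Fl/Fl 27 (others 56.6 to 59.2 CPM).

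After 4-OHT 3 genes rose in both Fl/+ cultures labelled female and fell in all 3 labelled male, a difference that was not tested. For Aco1 the mean log2 change was 0.07 in female-labelled and -0.11 in male-labelled cultures, a gap of 0.19. The gap was 0.32 for Nadk and 0.48 for Ogdh.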

How the results depend on the processing

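The members' log2 fold changes moved by less than the spread between replicates in 467 of 468 alternative values, the exception being Pgd for Fl/Fl 4-OHT over Fl/+ untreated with library size alone (-0.10 against -0.19). Of the counts of genes called, 58 of 66 alternative values stayed within 1.5 times the reported one. For 4-OHT the replicate block (mouse number) gave 3809 called genes against 2044, and leaving out a library gave 1271 (without Fl/+ 4-OHT 19) to 2522, with 1311 without Fl/+ 4-OHT 35. With library size alone as scaling, 1396 of 2108 calls for 4-OHT were higher, against 1088 of 2044, and 3150 of 4753 for Fl/Fl 4-OHT over Fl/+ untreated, against 2357 of 4620. For labelled sex, 0 genes were called, 24 with DESeq2, 2 without a filter, 5 without the cultures of mice 36 and 39 (chosen after seeing the data), and 0 to 5 when a library was left out, with 1 without Fl/+ 4-OHT 19 and 5 without Fl/Fl 39. Without mice 36 and 39, 3513, 1614 and 4011 genes were called between genotypes, for 4-OHT and for Fl/Fl 4-OHT over Fl/+ untreated, against 4773, 2044 and 4620. The cause of these changes was not tested.

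Among the named genes outside the members, 96 of 941 alternative values lost the call, 5 gained one and 11 changed sign. The sign changes were in 4 genes that were not called: G6pd2 between genotypes, from -0.37 to 0.10 when a library was left out, Nnt for 4-OHT, from -0.050 to 0.29, Nadk2 for 4-OHT, from -0.052 to 0.15, and, without mice 36 and 39, Nnt (-0.16), Nadk2 (-0.0031) and Nadk (0.0046), with Nadk also at 0.017 with library size alone. The replicate block changed 1 call among the members, Idh3a for 4-OHT, and among the named genes Aldh1l1 (adjusted p = 0.0451 with edgeR), and raised the called genes of the Nrf2 list from 4 to 7 and of the cholesterol list from 0 to 1. Without gene length, 22 of 27 places in the order of the members' levels changed, and Idh1 stayed first in both Fl/+ groups. With 5 cultures per group, differences of the size seen for G6pdx or Me1 were within the spread between cultures.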

Other observations

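The members differed in how closely the cultures of a group agreed. Pgd had a coefficient of variation of 1.57% over the 5 Fl/+ 4-OHT cultures, below which only 0.113% of the 15036 genes lay, and G6pdx, Idh3b and Aco1 had 3.48%, 3.90% and 4.71% in that group, where the median over all genes was 15.2%. Idh3a was the most spread member in Fl/+ untreated, at 21.5%, with mice 24 and 26 at 212 and 213 CPM and mice 19, 35 and 36 at 293 to 333 CPM. In Fl/Fl 4-OHT it had 6.15%.

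Over the 15 libraries, deviations from the group means were compared for the 36 pairs of members as a description, with mice 19, 24, 26, 35 and 36 each contributing 2 libraries. The coefficients ran from -0.76 to 0.72 with a median of 0.06, and 20 of 36 were positive. The 2 highest were Idh3a with Aco1, at 0.72, and Idh3b with Idh3g, at 0.68. Idh1 gave 0.66 with Me1 and -0.13 with Idh2.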
